A study of Mus musculus with 661 samples.

Results

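The genes described here are 10 immediate early genes: the Fos family members Fos, Fosb and Fosl2, the Jun family members Jun, Junb and Jund, the ATF/CREB family member Atf3, the zinc finger factors Egr1 and Klf4, and Ier2. They were taken by symbol, each as a single entry, from a table of 45771 nuclear genes counted in single mouse cells. The study sorted stromal and vascular cells of bone marrow from young and old C57BL/6 mice to ask how the niche of blood stem cells differs with age. Cells were sorted singly into wells and sequenced as full-length cDNA amplified over 21 PCR cycles without molecular identifiers. The 6 sorted populations were MSC-L and SEC from flushed central marrow and MSC-S, OPr, mOPr and AEC from the crushed endosteal bone. All gates left out cells with Ter119 or CD45.

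MSC-L, the leptin receptor mesenchymal stroma, were sorted with PDGFRα and LepR, and MSC-S with Sca-1 and CD51. The osteoprogenitors OPr lacked both PDGFRα and LepR, and mOPr carried PDGFRα and CD51 without LepR or Sca-1. Arteriolar endothelial cells (AEC) were CD31 positive with high Sca-1 and low CD105, and sinusoidal endothelial cells (SEC) had low Sca-1 and high CD105. Young mice were 6 to 12 weeks old, and old mice were at least 18 months and mostly 24 months. Endosteal cells came out of collagenase after 1 hour at 37 degrees and marrow cells after 2 rounds of 10 minutes, so tissue site and digestion cannot be told apart. There were 336 young and 325 old cells: 53 and 58 MSC-L, 59 and 59 MSC-S, 44 and 29 OPr, 26 and 26 mOPr, 84 and 82 AEC, and 70 and 71 SEC. Several mice of each age gave the cells, but no label ties a cell to a mouse, so the cells of a population and age are taken as 1 sample, no difference between groups was tested, and intervals here cover counting error only.

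Library numbers in the sample titles fall into 3 ranges, called ranges 1, 2 and 3 below: under 19000 (170 cells), from 19000 to 26000 (303 cells) and above 26000 (188 cells). What the ranges stand for is not given in the labels. MSC-L, MSC-S, OPr and mOPr lie in ranges 1 and 2, AEC in all 3, and SEC in range 3 alone. Nuclear counts per cell ran from 57517 to 1488549 with a median of 416359, and the group medians ran from 302201 in old SEC to 775426 in old OPr. A level is given as CPM, counts scaled to 1000000 nuclear counts, summed over the cells of a group, with an exact Poisson 95% interval. A cell is called high for a gene at 100 CPM or more, and shares of cells carry exact Clopper-Pearson 95% intervals.

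Immediate early genes are transcribed within minutes of a stimulus, without new protein being made, when kinase cascades activate factors such as SRF, the ternary complex factors and CREB that already sit at their promoters. Fos and Jun proteins pair through leucine zippers into AP-1, which binds DNA and switches on later genes for matrix remodelling, inflammation and growth. In bone, AP-1 proteins are required for normal osteoblasts and osteoclasts. The transcripts are short lived, and they are also known to rise when tissue is taken apart with warm enzymes.

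The sort labels were checked against marker genes. The 6 MSC-L markers (Lepr, Cxcl12, Adipoq, Kitl, Ebf3 and Foxc1) summed to 57359.5 CPM in young and 47105 CPM in old MSC-L, with Cxcl12 the most abundant. The same list summed to 5589 and 22695 CPM in young and old OPr and to 998 and 21133 CPM in young and old mOPr. Old OPr and mOPr thus held more MSC-L transcripts than young ones, and part of these cells share clusters with MSC-L. The 6 MSC-S markers summed to 2561 CPM in young and 2993 CPM in old MSC-S, but also to 2388 and 2549.7 CPM in AEC, which they do not set apart from MSC-S. The 6 osteoprogenitor markers summed to 3479.7 and 3688 CPM in OPr and 5272 and 9253 CPM in mOPr. The same markers were at 11374 CPM in young MSC-L and 7327 CPM in old MSC-L, so this list does not set OPr apart from MSC-L. The 6 AEC markers summed to 2712 and 2978 CPM in AEC against 314 and 1046 CPM in SEC. The 6 SEC markers summed to 14791 and 11469 CPM in SEC against 1001 and 412 CPM in AEC, and their Lyve1 was at 0 in old SEC.

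Broad lineage lists followed the sorts. The 10 mesenchymal markers summed to between 3627 CPM (old OPr) and 56034 CPM (old MSC-S) in the mesenchymal sorts and to at most 1858 CPM in the endothelial ones. The 10 endothelial markers summed to between 10807 and 11377 CPM in the endothelial sorts and to at most 293 CPM in the mesenchymal ones. Old OPr stood apart by its blood cell transcripts: the 15 hematopoietic markers summed to 12920.4 CPM there, all 15 at 10 CPM or more and S100a9 the most abundant at 4041 CPM, against 149.9 CPM in young OPr and at most 666 CPM in any other group. The 5 erythroid markers also summed highest in old OPr, at 216 CPM, and to 83.9 CPM or less elsewhere. The 6 pericyte markers ranged from 93.8 CPM in young OPr to 2489 CPM in old SEC. They summed to 1769.9 CPM in old OPr, and to 179.9 and 1736 CPM in young and old mOPr, with Acta2 the most abundant in both old groups.

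The 10 genes were among the abundant transcripts of these cells. Over all cells Fos had 7887 CPM and rank 5 among the 45771 nuclear genes, Egr1 had 2170.3 CPM and rank 27, and Jund, with the lowest level, had 255 CPM and rank 511. Per kilobase of merged exons, Fos was again the highest at 3353 CPM per kb, followed by Junb at 675, Atf3 at 546 and Egr1 at 484 CPM per kb. Fosl2, whose merged exons span 9680 bases, was the lowest at 34.3 CPM per kb. Every member was undetected in some cells, from 12 cells for Fos to 147 for Atf3, and the highest cell for Fos held 55605 CPM. The share of cells at a high level ran from 291 cells (44%, 40.2 to 47.9) for Atf3 to 513 cells (77.6%, 74.2 to 80.7) for Fos.

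On the mouse genome (GRCm38), Fos lies at chr12:85473890-85477273 (plus strand), Fosb at chr7:19302696-19310051 (minus strand) and Fosl2 at chr5:32135801-32157842 (plus strand). Jun lies at chr4:95049034-95052222 (minus strand), and Junb and Jund share a chromosome at chr8:84974484-84978718 (minus strand) and chr8:70698949-70700616 (plus strand). Atf3 lies at chr1:191170296-191218039 (minus strand), Egr1 at chr18:34859823-34864984 (plus strand), Ier2 at chr8:84661331-84662852 (minus strand) and Klf4 at chr4:55527143-55532466 (minus strand). Ier2, Junb and Jund are thus on the same chromosome. Reads were counted without regard to strand, and Junb overlaps the opposite-strand gene Prdx2, whose 49225 counts came to 10.3% of those of Junb. Jun overlaps the opposite-strand Junos, with 0.462% as many counts.

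Fos encodes the founding AP-1 partner of Jun. Its lowest, median and highest cells were at 0, 29.1 and 12573 CPM in young MSC-L and at 0, 82.3 and 7095 CPM in old MSC-L. In MSC-S they were at 0, 5467 and 40326 CPM in young and 2.86, 3121 and 38262 CPM in old cells. In OPr they were at 0, 2605 and 47176 CPM in young and 0, 1385 and 34996 CPM in old cells. The median MSC-L cell therefore held less Fos than the median cell of either endosteal population, while the cells themselves overlapped widely. In mOPr the same 3 values were 21.9, 13929.6 and 53849 CPM in young and 20.03, 13204 and 47757 CPM in old cells. In AEC they were 0, 3683 and 55605 CPM in young and 3.85, 6659.9 and 38733 CPM in old cells. In SEC they were 5.9, 6843 and 16062 CPM in young and 0, 2698 and 25676 CPM in old cells. The median of young SEC lay above that of old SEC, which spread further in both directions.

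Summed over cells, Fos in young mice was at 1156 CPM (1142 to 1170.1) in MSC-L, 6335 CPM (6302 to 6368) in SEC, 8619.8 CPM (8586 to 8653) in OPr, 9126 CPM (9095 to 9158) in MSC-S, 10066 CPM (10033 to 10099) in AEC and 14610.4 CPM (14548 to 14673) in mOPr. In old mice it was at 818 CPM (806 to 831) in MSC-L, 5738 CPM (5706 to 5771) in SEC, 6897 CPM (6871 to 6923) in MSC-S, 8482 CPM (8443 to 8521) in OPr, 9712 CPM (9679 to 9744) in AEC and 15407 CPM (15338 to 15476) in mOPr. The order ran from MSC-L to mOPr at both ages, and the next population stood 5.48-fold above MSC-L in young and 7.01-fold above it in old mice. That population was SEC, which shares no range with MSC-L. Fos was high in 22 of 53 cells (41.5%, 28.1 to 55.9) of young and 26 of 58 cells (44.8%, 31.7 to 58.5) of old MSC-L, and in at least 69% of the cells of every other group.

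Fosb, which encodes a further Fos partner and a truncated splice form that lacks part of the activation domain, lay below Fos in every population. The order of the populations was that of Fos only in part. Fosb was at 168 CPM in young and 187 CPM in old MSC-L, and the next population, SEC, was at 403 and 599 CPM. Its highest levels were 1262 CPM in young OPr and 1671 CPM in old mOPr. Fosl2, which encodes Fra-2, a Fos protein without a strong activation domain that takes part in bone formation, had a different order. It was highest in AEC, at 575 CPM in young and 657 CPM in old cells, and SEC came next in young mice at 479.8 CPM. In old mice OPr came next at 427 CPM, ahead of SEC at 412 CPM. In MSC-L it was at 51.3 CPM in young and 42.8 CPM in old cells, and in MSC-S at 223 and 246 CPM.

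Jun encodes the AP-1 subunit that Fos needs in order to bind DNA. It was highest in young mOPr, at 2392 CPM (2366 to 2417), and in old SEC, at 2315 CPM (2294 to 2336). MSC-L were lowest, at 604 CPM in young and 543 CPM in old cells, and MSC-S came next at 1093 and 865 CPM. The gap between MSC-L and the next population was thus smaller for Jun than for Fos, at 1.81-fold in young and 1.59-fold in old mice. In range 2 alone MSC-L were not the lowest for Jun. Young MSC-L were at 918 CPM there, against 713 CPM in MSC-S and 675 CPM in OPr. Old MSC-L were at 710 CPM against 704 CPM in MSC-S. Junb encodes a Jun protein that restrains Jun in several settings. It was at 429 and 368 CPM in young and old MSC-L and reached 1965 CPM in young AEC and 3101 CPM in old mOPr. Jund, the most constitutive Jun gene, had the flattest profile. It ran from 115 CPM in young MSC-L to 319 CPM in young AEC and from 123 to 417 CPM in the same populations of old mice.

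Atf3, a stress-induced repressor that pairs with Jun proteins, was low in most MSC-L cells. Its lowest, median and highest cells were at 0, 2.04 and 5666 CPM in young and 0, 2.17 and 261 CPM in old MSC-L. In young and old MSC-S they were at 0, 463 and 11033 CPM and 0, 256 and 9006 CPM. In young and old AEC they were at 0, 459 and 21290.3 CPM and 0, 1313 and 11724 CPM. MSC-L cells were thus nearly without Atf3 apart from a few, and 94.6% of the CPM summed over young MSC-L cells came from 1 cell. SEC medians were 4.97 CPM in young and 0 CPM in old cells, with highest cells at 4823 and 5422 CPM. Old OPr had a median of 1.9 CPM and a highest cell of 11425 CPM, which made up 73.6% of the summed CPM of that group. Atf3 was high in 2 of 53 cells (3.77%) of young MSC-L, 22 of 70 cells (31.4%) of young SEC and 54 of 84 cells (64.3%) of young AEC. In old mice the shares were 1 of 58 cells (1.72%), 19 of 71 cells (26.8%) and 63 of 82 cells (76.8%) in the same order.

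Egr1 encodes a growth-factor-induced zinc finger activator. It was at 412 CPM (404 to 421) in young and 607 CPM (596 to 618) in old MSC-L and at 3276 and 4569 CPM in young and old mOPr, the highest population at both ages. The other groups lay between 1621 CPM (old SEC) and 2703 CPM (old AEC). Klf4, a Krüppel-like factor best known for its part in reprogramming and for restraint of inflammation in endothelium, was nearly absent from MSC-L. It was at 22.1 CPM (20.2 to 24.1) in young and 15.6 CPM (13.9 to 17.4) in old MSC-L, where the median cell had 0 counts at both ages and 1 of 53 cells (1.89%) and 1 of 58 cells (1.72%) were high. In AEC it was at 679 and 731 CPM and in MSC-S at 660.1 and 575 CPM, with 93.2% of old MSC-S cells high. Ier2, a small nuclear protein induced with the others, was lowest in MSC-L at 177 and 166 CPM and highest in AEC at 1001 and 975 CPM. Its median cell in young MSC-L held no count, against 537 CPM in young AEC.

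**Figure D1:**
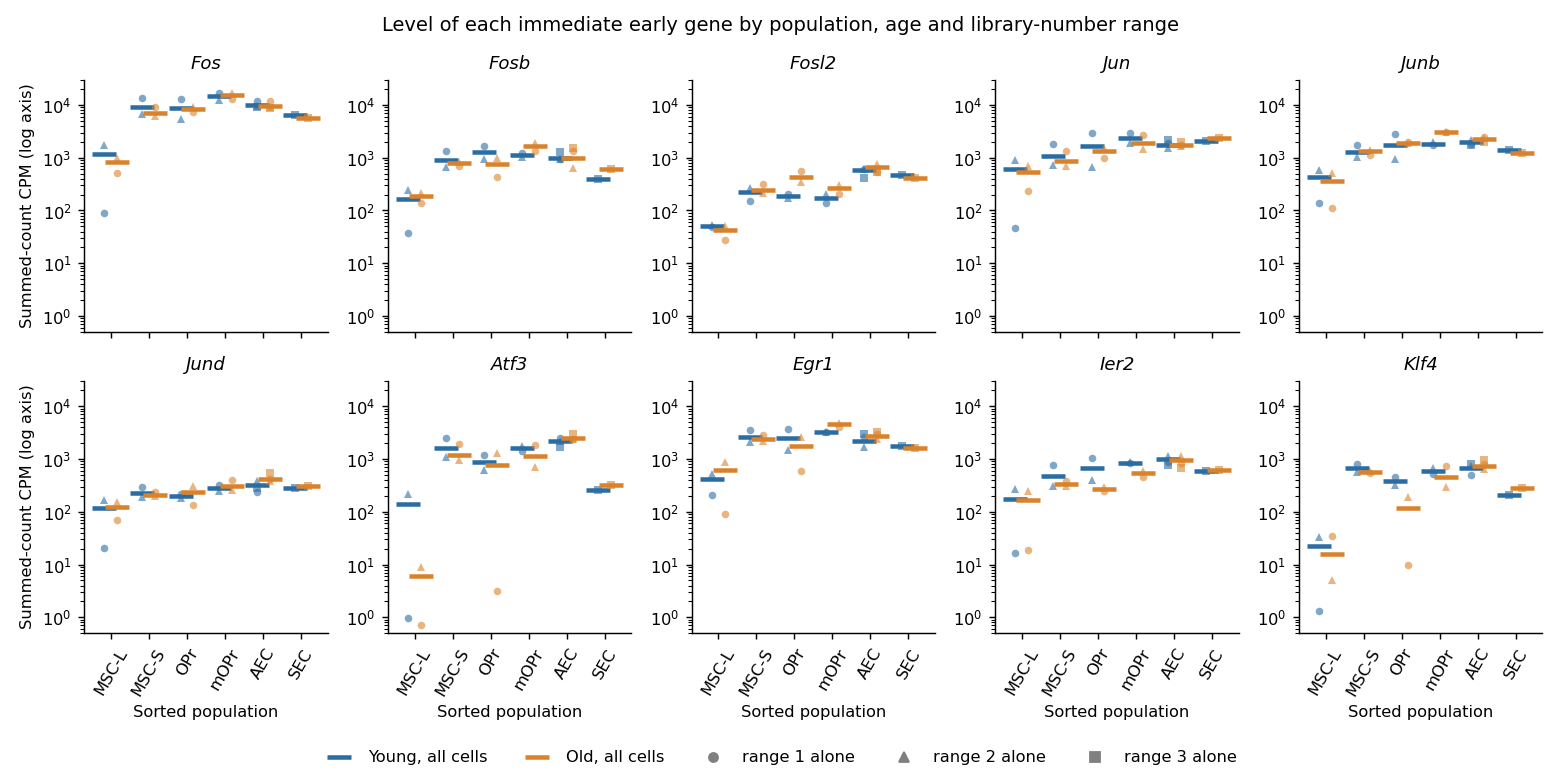
Level of each immediate early gene in 6 sorted populations, as CPM of summed counts on a log axis. Bars give all cells of an age, and circles, triangles and squares give library-number ranges 1, 2 and 3 alone. MSC-L had the lowest bar in every panel at both ages, with Fos at 1156 CPM in young and 818 CPM in old cells.

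Across the 6 populations, MSC-L had the lowest summed level of all 10 members in young mice and of all 10 in old mice, against 15.3 and 12% of all genes tested. It lay 2-fold or more under the next population for 7 of 10 members in young mice, against 2.79% of all 17348 genes tested the same way. In old mice the count was again 7 of 10, against 1.91% of 17190 genes. In young mice the members short of 2-fold were Jun, Jund and Atf3, and in old mice Jun, Jund and Ier2. Among those past 2-fold, the next population was SEC for Fos, Fosb, Egr1 and Klf4 in young mice. In old mice it was SEC for Fos, Fosb, Junb, Atf3 and Egr1. MSC-L and SEC share no range, so these gaps cannot be told apart from differences between ranges. The largest gaps were those of Klf4 in young mice, at 9.33-fold, and of Atf3 in old mice, at 53.8-fold. In both, 1 cell held much of the MSC-L level, with 91.2% of the summed Klf4 CPM of young MSC-L and 51.6% of the summed Atf3 CPM of old MSC-L. Such a cell raises the MSC-L level, so it narrows these gaps and makes their size uncertain. Without the top cell of each group, with mean CPM or with thinned cells, the young count was 9 of 10, and the old counts were 7, 7 and 8. Of the other places, AEC were highest for 6 members in young and 5 in old mice, and mOPr for 3 in young and 4 in old mice.

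The ranges show how firm this order is, except for MSC-L against SEC, which share no range. In young mice, every range of MSC-L lay below every range of every other population for 9 of 10 members, Jun being the exception. In old mice this held for 4 of 10 members (Fos, Fosb, Fosl2 and Junb). Among the exceptions, range 1 of old OPr had Atf3 at 3.13 CPM and Klf4 at 9.63 CPM. Old MSC-L had Atf3 at 0.728 CPM and Klf4 at 35.1 CPM in range 1, and 8.95 and 4.99 CPM in range 2. Range 2 of old MSC-S had Jun at 704 CPM against 710.2 CPM in MSC-L. Among the 5 other populations, the range values of 33 of 40 neighbouring pairs overlapped in young mice and 25 of 40 in old mice. For Fos, mOPr lay above AEC in every range at both ages, from 12584 CPM upward in young and from 12796 CPM upward in old cells. In young mice range 1 of MSC-S, at 13722 CPM, and of OPr, at 12835 CPM, lay above the lowest mOPr range. Range 1 of young mOPr was at 16824 CPM. MSC-S, OPr and AEC could not be ranked for Fos, since at both ages the ranges of neighbours among them overlapped.

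The same contrast appears when members are counted per cell. Over all cells, 462 (69.9%, 66.2 to 73.4) had at least 5 of the 10 members high, 154 had all 10 and 56 had none. At least 5 were high in 7 of 53 young MSC-L cells (13.2%, 5.48 to 25.3) and 14 of 58 old MSC-L cells (24.1%, 13.9 to 37.2). Among old groups the lowest share after MSC-L was that of OPr, with 17 of 29 old OPr cells (58.6%, 38.9 to 76.5), and among young groups that of AEC, with 67 of 84 young AEC cells (79.8%, 69.6 to 87.7). The median MSC-L cell thus had 1 member high in young and 2 in old mice, where the other groups had medians from 5 (old OPr) to 9.5 (old AEC). Within MSC-L the ranges differed: at least 5 members were high in 1 of 20 young MSC-L cells (5%, 0.127 to 24.9) of range 1 and 6 of 33 young MSC-L cells (18.2%, 6.98 to 35.5) of range 2. For old MSC-L these were 1 of 20 old MSC-L cells (5%, 0.127 to 24.9) and 13 of 38 old MSC-L cells (34.2%, 19.6 to 51.4). Cells with all 10 members high were most frequent in AEC, at 37 of 84 young (44%) and 41 of 82 old cells (50%), and did not occur among the 53 young and 58 old MSC-L cells.

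**Figure D2:**
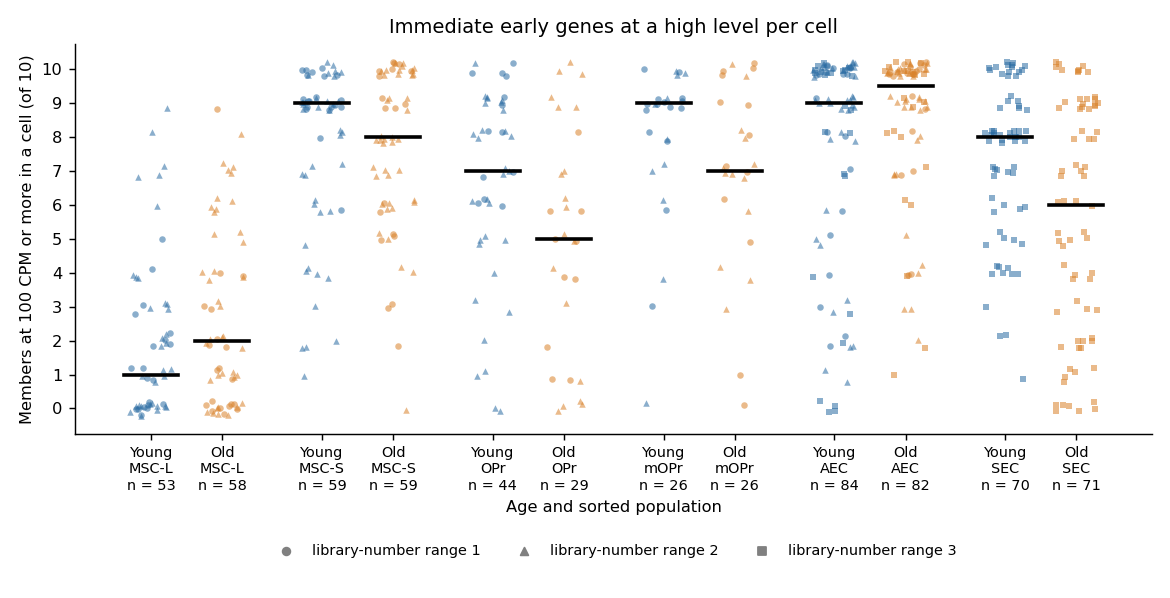
Number of the 10 immediate early genes at 100 CPM or more in each cell, by age and sorted population. Points are cells, spread sideways and slightly up and down so that they can be seen, shapes are library-number ranges and black bars are medians. MSC-L medians were 1 in young and 2 in old cells, and those of AEC 9 and 9.5.

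The study's clusters allow cells of the same cluster to be compared between sorts. Its mesenchymal clusters M1 and M2 held 56 of 58 old MSC-L cells, and also 10 of 29 old OPr and 14 of 26 old mOPr cells. These 24 cells came through endosteal gates that exclude LepR protein, and their MSC-L markers summed to 45924 CPM against 48172 CPM in the MSC-L sort, with Lepr at 2518 against 3309.9 CPM and Cxcl12, most of the sum, at 40192 against 40496 CPM. Kitl was at 930.0 against 1709 CPM and Ebf3 at 816 against 1183 CPM, and the osteoprogenitor markers summed to 9739 against 7386 CPM, with 13514 CPM in the mOPr sort. The cells of the sorts thus share clusters without being alike in every marker. This comparison was chosen after the values were seen. All 10 members were 2-fold or more higher in the 24 cells of the OPr and mOPr sorts than in the 56 cells of the MSC-L sort. Of all 12432 genes tested, 14.4% were 2-fold or more higher and 21.2% were 2-fold or more lower. The median log2 ratio was 2.07 over the members and -0.11 over all genes tested.

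Fos differed most. Its lowest, median and highest cells were at 0, 82.3 and 7095 CPM in the MSC-L sort and at 17.1, 11949.7 and 38058 CPM in the OPr and mOPr sorts. Summed levels were 838 and 15443 CPM, a ratio of 18.4-fold (18.1 to 18.7). Individual cells of both sorts overlapped, and 20 of 24 against 25 of 56 were high. For Junb the summed levels were 368 and 2222 CPM, a ratio of 6.03-fold (5.88 to 6.19). For Egr1 they were 608 and 3187 CPM, a ratio of 5.24-fold (5.14 to 5.35). The smallest ratio was that of Jund, at 2.21-fold (2.11 to 2.33). Fosb was higher by 4.84-fold (4.67 to 5.03), Jun by 3.05-fold (2.98 to 3.12), Fosl2 by 3.15-fold (2.91 to 3.42) and Ier2 by 2.24-fold (2.14 to 2.33). The Klf4 ratio of 8.84-fold (7.83 to 9.99) rests on few cells: medians were 0 and 2.71 CPM, and 1 cell of the endosteal sorts held 5711 CPM.

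Atf3 passed 2-fold from a level unlike that of the rest. In these clusters it was low whatever the sort, at 6.15 CPM in the MSC-L sort and 25.2 CPM in the OPr and mOPr sorts, a ratio of 4.09-fold (3.32 to 5.07), with medians of 2.17 and 2.71 CPM. By cluster over all sorts and ages, Atf3 was at 7.57 CPM in M1 and 22.9 CPM in M2, against 1202, 283 and 1338 CPM in the OPr-like clusters M3, M4 and M5. The 2 largest MSC-S-like clusters, M16 and M12, were at 582 and 1646 CPM. Fos was at 4994 and 5799 CPM in M1 and M2 and at 4617, 14558.5 and 8527 CPM in M3, M4 and M5. In M12 and M16 it was at 9793 and 3947 CPM. The study used Atf3 and Klf4 among the guide genes of its mesenchymal clusters and Fosb and Atf3 among those of its endothelial ones, so levels of these genes by cluster are not independent of the clustering.

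The difference by sort held in each range. In range 1 alone the members' median log2 ratio was 2.70 (13 against 19 cells) and in range 2 alone 2.22 (11 against 37 cells). All 10 members were 2-fold or more higher in each, against 19.6 and 17.5% of genes tested. In cluster M2 alone, which took 13 and 23 cells, 10 members passed (24.6% of genes), and in M1 alone 8 did (14.7%), Fosl2 and Ier2 falling short. The 10 cells of the OPr sort alone gave 9 members (15% of genes), without Ier2, and the 14 of the mOPr sort alone gave 9 (14.9%), without Jund. Median depth was 635208 counts in the endosteal sorts and 352562 in the MSC-L sort, and with cells thinned to 100000 counts (24 and 55 cells) the members' median log2 ratio was 2.11. At least 5 members were high in 19 of 24 cells (79.2%, 57.8 to 92.9) against 14 of 56 (25%, 14.4 to 38.4). None of the 24 cells reached 10 CPM for 3 or more hematopoietic or 5 or more endothelial markers. In young mice only 5 cells of M1 and M2 came from the OPr and mOPr sorts, with Fos at 8953 CPM against 904 CPM in 51 cells of the MSC-L sort. Tissue site, gate and length of digestion go together here and cannot be told apart.

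**Figure D3:**
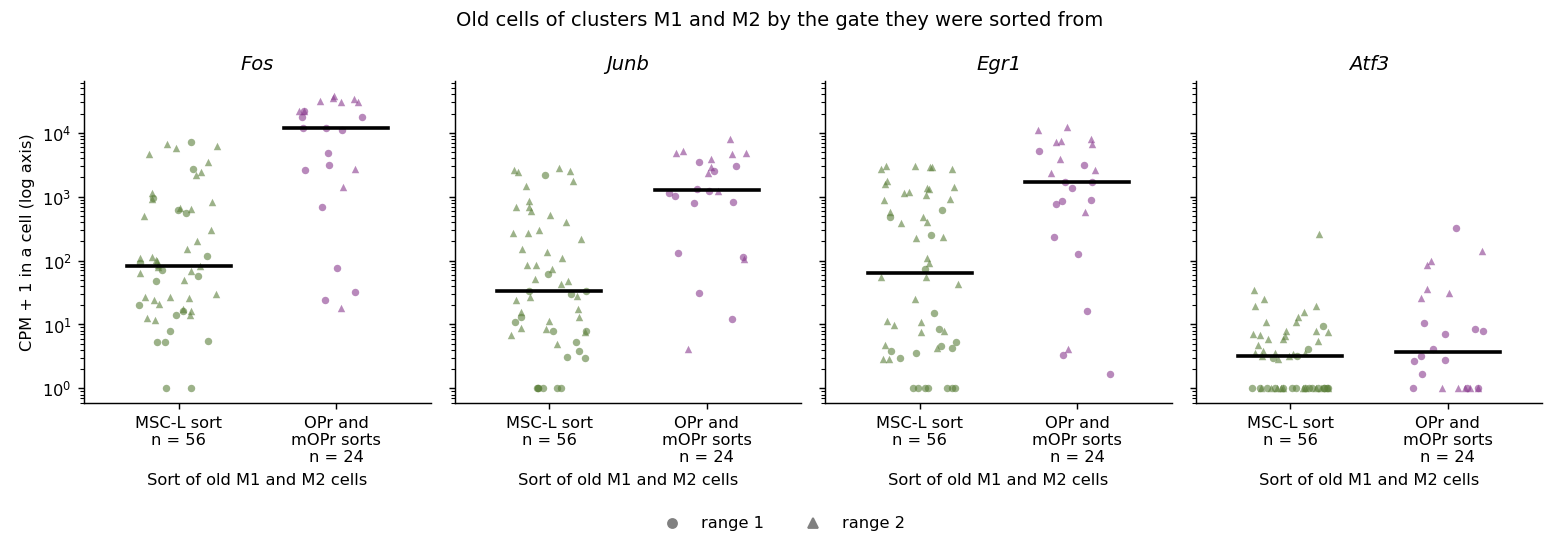
Fos, Junb, Egr1 and Atf3 in old cells of clusters M1 and M2, by the gate the cells were sorted from, as CPM plus 1 in each cell on a log axis. Points are cells, circles range 1 and triangles range 2, and black bars are medians. Median Fos was 82.3 CPM in 56 cells of the MSC-L sort and 11949.7 CPM in 24 cells of the OPr and mOPr sorts, while median Atf3 was 2.17 and 2.71 CPM.

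The endothelial populations were compared within range 3, which holds both. In young mice the members' median log2 ratio of AEC over SEC was 0.44, against -0.10 over all genes tested (24 and 70 cells). In old mice it was 0.75 against -0.22 (23 and 71 cells). Atf3 differed most, at 1652 CPM in AEC and 263 CPM in SEC of young mice (log2 2.64) and 3002 and 325 CPM in old mice (log2 3.20). Klf4 came next in both, with log2 ratios of 1.95 and 1.72, and Fosb had 1.67 and 1.35. Jun was near level, at 2149 CPM in AEC and 2036 CPM in SEC of young mice with a log2 ratio of -0.20 in old mice. AEC thus exceeded SEC chiefly in Atf3, Klf4 and Fosb.

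Age was the question the study was built on, and old over young ratios were taken within each population. Over all ranges, the members' median log2 ratio was -0.19 in MSC-L, -0.19 in MSC-S, -0.26 in OPr, 0.11 in mOPr, 0.15 in AEC and 0.09 in SEC. With cells grouped by the study's clusters in place of the sort, the median for MSC-L was 0.64, of the opposite sign, and this grouping adds 24 old cells of the OPr and mOPr sorts to it. The medians over all genes tested, by sort, were 0.01, -0.06, 0.14, 0.11, -0.03 and 0.05 in the same order. In MSC-L 0 of 10 members were 2-fold or more higher in old cells (13.9% of genes tested) and 1 was 2-fold or more lower (11.5%). Without the top cell of each age MSC-L had 1 higher (14.4%), Klf4, and 0 lower (11.1%). Grouped by cluster it had 3 higher (13.7%), Fos, Egr1 and Klf4, and 0 lower (9.22%). In OPr 1 of 10 was higher (25.6%) and 2 were lower (19.6%), and without cells past the cuts for markers of other types 0 were higher (26.6%) and 3 lower (18.3%). No member passed 2-fold in either direction in MSC-S (8.65% of genes higher, 11.1% lower), mOPr (24.7% and 19.8%), AEC (9.33% and 11.7%) or SEC (13.1% and 7.56%). Single ranges gave other counts, here with the share of all genes tested in brackets. In range 1 of MSC-L 5 members were 2-fold or more higher (17.5%) and 1 lower (17.6%), and in range 2 0 (17.2%) and 2 (16.1%). Of the CPM summed over old MSC-L cells of range 1, the highest cell held 99.3% for Klf4, 57.4% for Fos and 43.6% for Jun. For Fosb and Jund it held 36.4 and 24.5%. Among young MSC-L cells of range 1 the highest cell held 93.6% for Egr1, the member called lower. In range 1 of OPr 1 was higher (24.7%) and 6 were lower (32.8%), and in range 2 3 (30.7%) and 0 (18.9%). MSC-S had 1 higher (16.1%) and 1 lower (18.2%) in range 1, and mOPr 0 higher (30.7%) and 2 lower (23%) in range 2. None was past 2-fold in the same direction in every range of any of the 6 populations.

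The 4 differences past 2-fold were looked at by cell and by range. Atf3 was at 6.05 CPM in old against 138 CPM in young MSC-L (log2 -4.30). With each age's cell richest in these transcripts left out, its log2 ratio was -0.26. That cell of young MSC-L lies in range 2, where the ratio with all cells was -4.44, and range 1 held too few counts to be tested. The Atf3 difference in MSC-L thus comes from 1 young cell. Leaving out the same cells moved Klf4 in MSC-L from -0.47 to 2.78, and a single cell held 91.2% of its summed CPM in young and 82.1% in old MSC-L. In OPr, Klf4 was at 117 CPM in old cells against 378 CPM in young ones (log2 -1.68), with -5.39 in range 1 and -0.77 in range 2. Ier2 in OPr was at 272 and 679.9 CPM (log2 -1.32), with -2.10 and -0.45 in the ranges and -0.87 with thinned cells. Both were lower in old OPr in each range, by unlike amounts. The mixes were unlike too: young OPr held 3 MSC-L-like, 5 MSC-S-like and 36 OPr-like cells, and old OPr 10, 0 and 19. Klf4 was at 28.7 and 98.7 CPM in M1 and M2 over all sorts, against at least 240.2 CPM in the OPr-like clusters M3 to M5. With cells grouped by cluster its ratio was -0.19 and that of Ier2 -1.05. Fosl2 in old OPr was at 427 CPM against 186 CPM in young OPr (log2 1.19).

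The Fosl2 difference went with the blood-like cells of old OPr. At least 3 hematopoietic markers reached 10 CPM in 10 of 29 old OPr cells, and in 1 of 44 young ones. Those 10 cells had Fosl2 at 1122 CPM, while the other 19 old cells were at 186 CPM and the 44 young cells at 186 CPM. Without the cells past the cuts for markers of other types, the log2 ratio was -0.00. Atf3 was at 2456 CPM in the 10 cells, 174 CPM in the other 19 and 869.8 CPM in young OPr. The highest Atf3 cell of old OPr is among the 10, and the other 9 of them were at 119.7 CPM. The Atf3 ratio of OPr was -0.19 with all cells and -2.32 without those past the cuts. Junb was at 2661 CPM in the 10 cells against 1664 CPM in the other 19. Fos ran the other way, with 2914 CPM in the 10 cells and 10409 CPM in the 19.

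Several differences with age were unlike between ranges. In MSC-L, the members' median log2 ratio was 0.96 in range 1 and -0.20 in range 2. In OPr it was -1.79 and 0.79, and in MSC-S -0.50 and 0.00. The sign for these 3 populations thus differed between ranges, or was near 0 in 1 of them. In mOPr it was 0.31 and 0.24, and in AEC 0.08, 0.07 and 0.22 in ranges 1 to 3. The medians over all genes tested were -0.10 and 0.20 in mOPr and -0.16 and 0.29 in OPr for ranges 1 and 2. They lay between -0.10 and 0.01 in the ranges of MSC-L, MSC-S and AEC. Members of mOPr were unlike between ranges all the same, with Atf3 at 0.38 and -1.30 and Klf4 at 0.49 and -1.21. Junb in mOPr was higher in old cells in each range, at log2 0.85 and 0.68, with 3101 CPM against 1836 CPM over both. Differences between ranges at a fixed population and age were also large in MSC-L, OPr and MSC-S. In mOPr their medians were smaller than the age medians of single ranges, though in old cells not smaller than the 0.11 over both ranges. Single members of old mOPr differed more, with Atf3 at -1.33 and Klf4 at -1.35 for range 2 over range 1. Range 2 over range 1 gave a median log2 ratio of 3.44 in young and 1.35 in old MSC-L, -1.11 and 0.93 in OPr, -0.88 and -0.34 in MSC-S, 0.03 and 0.14 in mOPr, and 0.01 and -0.10 in AEC. Range 3 over range 2 gave -0.20 in young and 0.27 in old AEC. All-gene medians of these ratios lay between -0.14 and 0.28. In young MSC-L, Fos was at 87.8 CPM in 20 cells of range 1 and 1755 CPM in 33 cells of range 2.

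**Figure D4:**
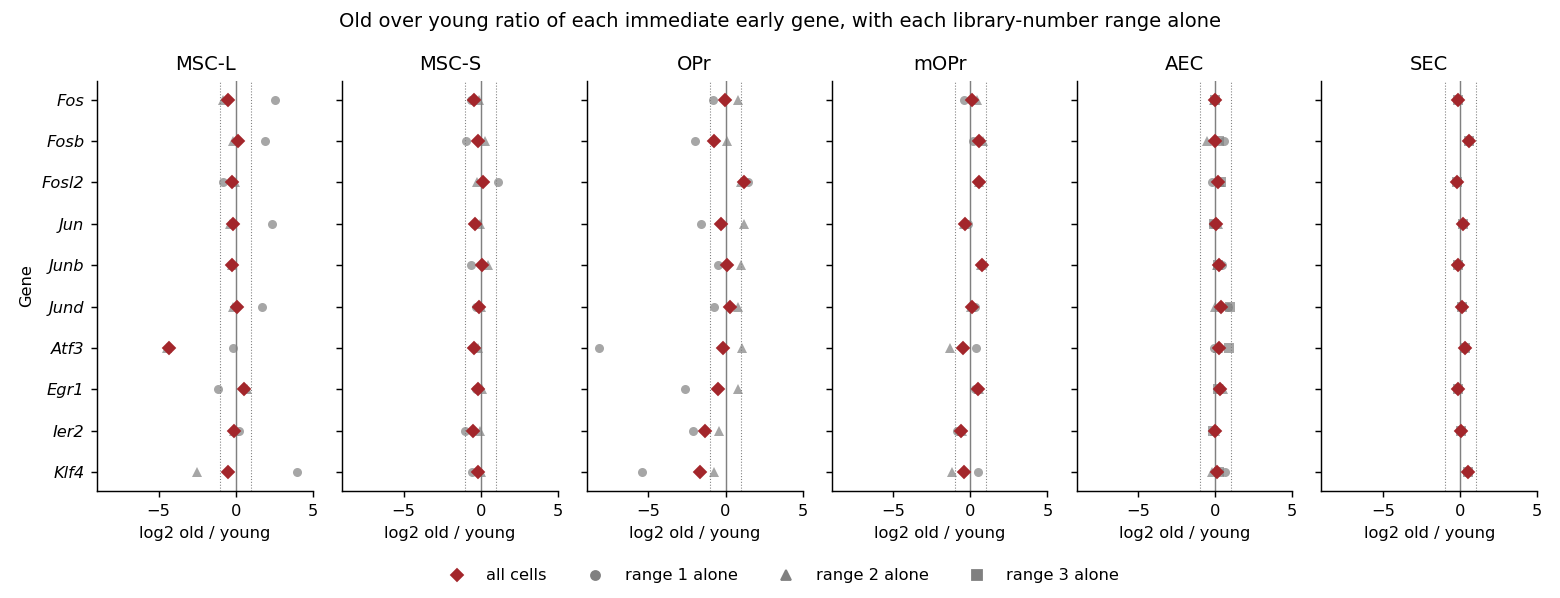
Log2 ratio of old over young level for each of the 10 genes in each sorted population. Diamonds are all cells, grey circles, triangles and squares are library-number ranges 1, 2 and 3 alone, and dotted lines mark 2-fold. Diamonds of 4 gene and population pairs lie at or beyond the dotted lines, such as Atf3 in MSC-L at -4.30, and the ranges of OPr lie on both sides of 0 for most genes.

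Old and young SEC differed in spread more than in level. Summed Fos was at 6335 CPM in young and 5738 CPM in old SEC (log2 -0.14), yet the share of cells with high Fos was 67 of 70 cells (95.7%, 88 to 99.1) in young and 49 of 71 cells (69%, 56.9 to 79.5) in old mice. The median cell was at 6843 CPM in young and 2698 CPM in old mice, and the highest at 16062 and 25676 CPM. Shares were also lower in old SEC for Jun, at 97.1% and 77.5%, for Junb, at 91.4% and 67.6%, and for Jund, at 85.7% and 57.7%. At least 5 members were high in 59 of 70 young SEC cells (84.3%, 73.6 to 91.9) and 43 of 71 old SEC cells (60.6%, 48.3 to 72). Old SEC thus held more cells with few of these transcripts and a few cells with more of them. The clusters of the cells also differed: young SEC held 59 SEC-like, 0 AEC-like and 11 unassigned cells, and old SEC 44, 8 and 19. Median depth was alike, at 314844 and 302201 counts, and the SEC libraries lie in range 3 alone, so no other range gives this comparison. In AEC the share with high Fos was 67 of 84 cells (79.8%, 69.6 to 87.7) in young and 74 of 82 cells (90.2%, 81.7 to 95.7) in old mice.

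Other genes of the response were taken as lists, to see whether they shared the low MSC-L level. Of all genes tested, MSC-L was lowest for 15.3% in young and 12% in old mice, by 2-fold or more for 2.79% in young and 1.91% in old mice. Of the 30 other immediate early genes, MSC-L was the lowest population for 20 of 30 tested genes in young and 23 of 29 in old mice, by 2-fold or more for 18 and 19. Summed, they were at 3876 CPM in young MSC-L and 3047 CPM in old MSC-L, against 10098 CPM or more in every other young population and 10179 CPM or more in every other old one. The pattern of the 10 members thus extended to most of this list, including the nuclear receptors Nr4a1, Nr4a2 and Nr4a3 and the anti-proliferative gene Btg2. Among the 14 feedback inhibitors, MSC-L was the lowest population for 5 of 14 tested genes in young and 5 of 14 in old mice, by 2-fold or more for 4 and 4, namely the phosphatases Dusp1 and Dusp5, the mRNA-decay factor Zfp36 and the cytokine inhibitor Socs3 at both ages. Among the 7 inducible heat shock genes, MSC-L was the lowest population for 7 of 7 tested genes in young and 5 of 7 in old mice, by 2-fold or more for 7 and 2, and the sum was 232 CPM in young MSC-L against 571 CPM in SEC and 2548 CPM in AEC of young mice.

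Genes that carry the signal to the promoters, other bZIP factors and targets were counted the same way. Among 16 upstream kinases and factors, MSC-L was the lowest population for 3 of 16 tested genes in young and 1 of 16 in old mice, by 2-fold or more for 1 and 0, and their sum was 1171 CPM in young MSC-L against 1021 CPM in young MSC-S. For the 14 other bZIP factors, MSC-L was the lowest population for 8 of 14 tested genes in young and 5 of 14 in old mice, by 2-fold or more for 3 and 2, and the sum was 807 CPM in young MSC-L against 1348 CPM in young SEC. With the 15 genes reported as AP-1 targets, MSC-L was the lowest population for 4 of 14 tested genes in young and 5 of 15 in old mice, by 2-fold or more for 2 and 4. Their sum was lowest in SEC, at 463 CPM in young and 512 CPM in old cells, and highest in MSC-S, at 3725 and 4603 CPM.

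With age, counts are given for MSC-L first, then MSC-S, then OPr and mOPr, then AEC and last SEC. Of all genes tested, 13.9, 8.65, 25.6, 24.7, 9.33 and 13.1% were 2-fold or more higher and 11.5, 11.1, 19.6, 19.8, 11.7 and 7.56% lower, and the counts of the lists are to be read beside these shares. Of the other immediate early genes, 0, 2, 8, 5, 0 and 1 were 2-fold or more higher in old cells and 4, 0, 2, 4, 2 and 3 were 2-fold or more lower, of 23, 29, 30, 28, 29 and 29 tested, with median log2 ratios of -0.47, 0.06, 0.03, 0.37, 0.15 and -0.15. Past 2-fold in every range were, among others, the orphan nuclear receptor gene Nr4a1 at 16.6 CPM in old against 171 CPM in young MSC-L cells (log2 -3.28) and Myc at 282 CPM in old against 67.9 CPM in young mOPr cells (log2 2.04). The bZIP factors numbered 2, 1, 5, 2, 2 and 0 higher and 2, 0, 2, 1, 1 and 1 lower, of 11, 11, 13, 11, 13 and 13, with medians of -0.06, 0.26, 0.30, 0.27, 0.05 and -0.37. They included Cebpb, a factor of inflammation and fat cell formation, with levels of 1004 CPM in old against 98.7 CPM in young OPr cells (log2 3.33) and 480.2 CPM in old against 157 CPM in young mOPr cells (log2 1.61). Cebpb ran the other way at 27.9 CPM in old against 59.5 CPM in young MSC-L cells (log2 -1.07). It was also lower in AEC, at 52.6 CPM in old against 155 CPM in young cells (log2 -1.54), though not past 2-fold in every range. Blood-like cells were not removed for these counts. Upstream genes numbered 1, 1, 3, 2, 1 and 0 higher and 0, 1, 1, 2, 0 and 0 lower, of 16, 16, 16, 16, 16 and 16, with medians of -0.11, -0.10, 0.27, -0.25, 0.23 and 0.19, among them Srf at 31.9 CPM in old against 99.8 CPM in young OPr cells (log2 -1.62), the serum response factor.

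The feedback inhibitors numbered 1, 1, 3, 2, 0 and 0 higher and 1, 3, 1, 0, 0 and 3 lower in the same order of populations, of 12, 14, 13, 12, 14 and 14 tested, with median log2 ratios of 0.04, -0.00, 0.39, 0.66, -0.07 and -0.15, such as Dusp5 at 70.3 CPM in old against 179.7 CPM in young SEC cells (log2 -1.34), a nuclear phosphatase of ERK. Heat shock genes numbered 4, 3, 3, 0, 0 and 3 higher and 0, 0, 1, 1, 0 and 0 lower, of 7, 7, 7, 7, 7 and 7, with medians of 1.11, -0.05, 0.44, 0.11, 0.13 and 0.40, with Hspa1a at 130.4 CPM in old against 40.6 CPM in young SEC cells (log2 1.66), an inducible Hsp70. No heat shock gene of MSC-L, MSC-S or OPr was 2-fold or more higher in every range, and SEC cells lie in range 3 alone. The reported AP-1 targets numbered 2, 6, 7, 7, 0 and 2 higher and 4, 2, 4, 3, 3 and 1 lower, of 10, 15, 13, 13, 10 and 10, with medians of -0.44, 0.46, 1.18, 1.46, -0.21 and 0.05. In MSC-S, Il6, an inflammatory cytokine, was at 307 CPM in old cells against 32.5 CPM in young ones (log2 3.20), past 2-fold in both ranges. The matrix protease gene Mmp3 ran in opposite directions: 192 CPM in old against 10.5 CPM in young MSC-S cells (log2 4.07) but 0.481 CPM in old against 973 CPM in young mOPr cells (log2 -9.36). Young mOPr held 16 MSC-S-like, 8 OPr-like and 2 MSC-L-like cells and old mOPr 0, 12 and 14, so the mOPr ratios compare unlike mixes of cells.

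Across single cells the members varied together. Pearson r was taken over all cells on log2 CPM after the mean of each population, age and range was removed, and the points share libraries and depth. It was positive for all 45 pairs, with a median of 0.485, from 0.277 for Fosl2 with Ier2 to 0.72 for Fos with Fosb. Fos went with Junb at 0.68, with Jun at 0.67 and with Egr1 at 0.661. Fosl2 was the loosest member, with a median r of 0.334 to the other 9, and Fosb the tightest at 0.624. The members' own r with log2 depth ran from 0.0575 to 0.226.

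Over single cells after group means were removed, the 10 genes outside the set most like the members' mean, among 6447 genes compared, were Zfp36 (0.751), Nfkbiz (0.662), Socs3 (0.659), Nr4a1 (0.654), Ppp1r15a (0.647), Dusp1 (0.635), Btg2 (0.612), Ier3 (0.597), Ifrd1 (0.581) and Sertad1 (0.554), with r in brackets. The median r of all genes compared was 0.0329.

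Since Fos, Fosb, Jun and Junb varied together across cells while Atf3 was low in clusters M1 and M2, their promoters are shown. RefSeq windows of 300 bases, 250 before and 50 after the RefSeq gene start on GRCm38.p6, matched 8 of 10 members, and there was none for Ier2 and Egr1. The RefSeq start lies 34706 bases downstream of the GENCODE gene start for Atf3, 671 downstream for Fosl2 and 1210 upstream for Jund, and within 30 bases for the other 5, so other starts of these genes were not searched. Motifs were searched on both strands, and shares refer to all 32851 windows. The letters TGACG, the start of the cAMP response element TGACGTCA, occur in 5 of 8 members (Atf3, Fos, Fosb, Junb and Klf4) and in 20.8% of all windows, and the whole element in 0 of 8 and 1.79%. The AP-1-like letters TGACATCA occur in Jun and in 3.62% of windows, and TGANTCA, the AP-1 site, in 0 of 8 and 7.81%. The letters TATAAA occur in Fos and Junb and in 13.6%, CCAAT in 3 of 8 and 37.4%, GGGCGG in 6 of 8 and 35.7%, and GCGTGGGCG, an Egr site, in 0 of 8 and 0.612%. The CArG box occurs in 0 of 8 windows and 1.63% of all. Sites farther than 250 bases before the start, or at Egr1 and Ier2, were not searched. Every TGACGTCA is also counted as TGACG, and a match is a description of the letters alone. In Fos, TGACG begins at -129 and -66 and TATAAA at -33 from the RefSeq start. In Fosb and Junb TGACG begins at -60 and -106, and in Junb TATAAA begins at 1, the RefSeq start itself. In Jun, TGACATCA begins at -45, and in Atf3 CGTCA, the reverse complement of TGACG, begins at -7. Capitals mark TGACG or its reverse complement, TGACATCA and TATAAA in the sequences that follow, printed 5′ to 3′ along the gene. Fos is chr12:85473640-85473939 (plus strand), Fosb chr7:19309996-19310295, Jun chr4:95052173-95052472, Junb chr8:84978699-84978998 and Atf3 chr1:191183284-191183583, these 4 on the minus strand.
Fos: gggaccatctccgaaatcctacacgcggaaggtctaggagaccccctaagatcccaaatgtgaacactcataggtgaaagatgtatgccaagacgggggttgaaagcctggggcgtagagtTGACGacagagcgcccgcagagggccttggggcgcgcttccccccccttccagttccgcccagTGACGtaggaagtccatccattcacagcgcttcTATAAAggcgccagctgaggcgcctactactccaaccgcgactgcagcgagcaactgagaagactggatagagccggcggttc
Fosb: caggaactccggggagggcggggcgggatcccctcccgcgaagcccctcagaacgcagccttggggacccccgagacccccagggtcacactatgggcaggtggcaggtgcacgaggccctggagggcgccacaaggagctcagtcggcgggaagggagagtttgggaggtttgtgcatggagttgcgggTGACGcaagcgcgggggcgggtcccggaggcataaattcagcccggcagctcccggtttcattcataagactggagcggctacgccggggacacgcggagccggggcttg
Jun: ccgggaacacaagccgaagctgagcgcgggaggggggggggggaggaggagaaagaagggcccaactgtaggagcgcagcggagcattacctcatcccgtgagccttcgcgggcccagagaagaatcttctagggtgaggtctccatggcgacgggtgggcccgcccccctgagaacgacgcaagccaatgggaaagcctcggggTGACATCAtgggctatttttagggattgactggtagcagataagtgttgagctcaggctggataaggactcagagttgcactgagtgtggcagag
Junb: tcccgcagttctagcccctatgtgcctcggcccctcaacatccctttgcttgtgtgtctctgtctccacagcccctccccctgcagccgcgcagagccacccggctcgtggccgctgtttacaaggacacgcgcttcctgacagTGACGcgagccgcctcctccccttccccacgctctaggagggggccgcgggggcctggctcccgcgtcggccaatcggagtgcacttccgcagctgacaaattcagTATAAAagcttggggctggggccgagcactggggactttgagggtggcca
Atf3: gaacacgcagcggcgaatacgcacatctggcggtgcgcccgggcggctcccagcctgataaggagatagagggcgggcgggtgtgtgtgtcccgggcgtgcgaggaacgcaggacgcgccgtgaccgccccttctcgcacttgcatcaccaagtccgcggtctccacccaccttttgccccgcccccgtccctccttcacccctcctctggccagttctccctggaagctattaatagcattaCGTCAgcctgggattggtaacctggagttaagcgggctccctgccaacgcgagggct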

How the data were processed

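Read counts per gene symbol and cell were used as the authors deposited them: GSNAP (2015-09-29) alignment to GRCm38.p4 and counting by HTSeq without strand. The 270 repeated symbols were summed, the 37 mitochondrial genes left out, and no deposited cell was removed, 7 of which held under 100000 nuclear counts. Members and gene lists were chosen with earlier results of these data known. Population, age and library number came from the titles and clusters from the study. Summed counts were scaled to CPM with exact Poisson 95% intervals, and log2 ratios added 1 CPM to both levels. A gene counted as tested where the compared groups held 100 or more counts and 5 or more cells with a count, and was called past 2-fold by size and not by p. Intervals of ratios are exact conditional binomial. Genes named beside the 10 members are those of the 6 pathway and 10 marker lists, as examples past 2-fold in every range or lowest in MSC-L by 2-fold, and the 10 most like the members' mean over cells among genes with at least 1000 counts and 10 CPM in 25% of cells. Gene models were GENCODE M21. The software was SciPy 1.17.1, matplotlib 3.10.9, NumPy 2.4.6 and pandas 2.3.3 under Python 3.11.15, and the ratio was tested on simulated data. Simulated cells had Poisson counts from a shared profile of their population, changed only by age and depth. Further variation between cells was not simulated, so the simulation does not cover it. Alternatives covered pooling, scaling, depth, pseudocounts, ranges, thresholds, left-out cells, cluster groups and the filter. The comparison of clusters M1 and M2 by sort, with its alternatives and those on the MSC-L order, and the TGACATCA search were chosen after seeing the data.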

Additional observations from a re-analysis of the deposited data

How the results depend on the processing

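Limits: each population and age is taken as 1 sample, since no label ties a cell to any of the several mice, reads carry no molecular identifiers, and site, gate and digestion go together. No paired analysis was possible because cells are not tied to mice. The members' median log2 ratio of old over young was 0.96 in MSC-L of range 1, and 0.31 and 0.24 in mOPr of ranges 1 and 2. With cells grouped by cluster it was 0.64 for MSC-L, 0.0477 for AEC and 0.14 for SEC, and Atf3 in MSC-L was 0.73, of opposite sign, in a grouping that leaves out its high young cell and adds 24 old and 5 young cells of the OPr and mOPr sorts. The MSC-L sort alone in M1 and M2 had Atf3 levels of 7.63 (young) and 6.15 CPM (old). With thinned cells Ier2 in OPr was -0.87, short of 2-fold. Median-of-ratios scaling gave a members' median of 0.0487 in mOPr. Without the highest cell of each age it was 0.17 in mOPr and 0.0248 in SEC. In SEC, mean CPM gave -0.0758 and thinning -0.0765. Without cells of other types SEC had 0.0183, and Fosl2 in OPr had -0.0041, of opposite sign. With high set at 10 CPM, at least 5 members were high in 84.3% of all cells, in 34% of young and 56.9% of old MSC-L, 98.3% and 98.3% of MSC-S, 92.9% and 100% of AEC, and 98.6% and 73.2% of SEC. At 1000 CPM the shares were 31.5% of all cells, 1.72% of old MSC-L, 30.5% and 25.4% of young and old MSC-S, 29.5% and 20.7% of OPr, 53.8% and 50% of mOPr, 41.7% and 54.9% of AEC, and 32.9% and 29.6% of SEC. Ratios of single members with age left their counting intervals for 50 of 60 with mean CPM, 47 of 60 with thinned cells, 46 of 60 without the highest cells, and 48 of 50 and 45 of 50 in ranges 1 and 2, so the intervals understate how far these ratios vary. MSC-L was lowest for all 10 members under each of the 5 alternatives run for that order. Single ranges were not among these alternatives. Within a range MSC-L was not always lowest, as for Jun in range 2 of young mice and Klf4 in range 1 of old mice.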

Other observations

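Endothelial cells outside the named arteriolar and sinusoidal clusters differed widely in these genes. The 8 cells of cluster E2 had a median of 10 members high, with Fos at 12052 CPM and Atf3 at 3944 CPM. The 37 cells of E5 had a median of 4, with Fos at 3820.4 CPM and Atf3 at 374 CPM. The 60 and 59 cells of the arteriolar clusters E3 and E4 had Atf3 at 3046 and 2329.8 CPM, and the 105 cells of the sinusoidal cluster E7 had 238 CPM, while Jun was at 1942, 1921 and 2378 CPM in the same order. Atf3 was a guide gene of these clusters.

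Among MSC-S-like clusters, M16 (36 cells) had the lowest Fos, at 3947 CPM, and the lowest Jun, at 257 CPM, while its Klf4 was at 493 CPM. Cluster M8 (7 cells) had Fos at 20705 CPM and Klf4 at 1252 CPM.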
